A study of Mus musculus with 16 samples.

Results

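The 8 genes followed here mark bile duct cells (cholangiocytes) and liver progenitor cells and were read in the livers of wild-type and Nrf2-null mice given or not given CDDO-Me. They are Sox9, Krt19, Krt7, Epcam, Spp1, Cdh1, Krt8 and Krt18. They were chosen by name as known markers, and are 8 of the 33730 genes in the count table. All 8 were among the 16206 genes with enough reads to be tested. The study sequenced ribosome-depleted total RNA of C57BL/6 mouse liver in 16 libraries, 4 animals in each of 4 groups. WT DMSO are wild-type mice injected with the solvent dimethyl sulfoxide at 1 µL/g. WT CDDO-Me are wild-type mice injected intraperitoneally with CDDO-Me at 3 mg/kg, dissolved in DMSO. KO untreated are Nrf2-null mice whose label reads untreated, with nothing said of a solvent, and KO CDDO-Me are Nrf2-null mice given the drug at the same dose. Injections were given 1 h and 24 h ahead of partial hepatectomy, and the liver removed at that operation (day 0) was sequenced. CDDO-Me, also called bardoxolone methyl, is a triterpenoid made to activate NRF2, the transcription factor encoded by Nfe2l2. If the KO controls received no DMSO, which the labels do not settle, then the drug and its solvent cannot be told apart in KO CDDO-Me against KO untreated, nor the genotype and the solvent in KO untreated against WT DMSO.

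Cholangiocytes line the bile ducts and modify bile, and liver progenitor cells, which share many of their markers, appear around the ducts after injury. Both cell types carry keratins 7 and 19 in addition to keratins 8 and 18, while hepatocytes, the bulk of the liver, make only keratins 8 and 18 among these. SOX9 is the transcription factor of the ductal plate and of the adult duct, and SPP1 (osteopontin) is a secreted matrix protein made by duct cells and by some immune cells. EPCAM and CDH1 (E-cadherin) join epithelial cells to each other, EPCAM on duct and progenitor cells and CDH1 on duct cells and on hepatocytes near the portal vein.

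The genes lie on 5 chromosomes in the GRCm38 build. Sox9 (ENSMUSG00000000567) spans chromosome 11 from 112782224 to 112787760 on the plus strand, and Krt19 (ENSMUSG00000020911) spans 100140810 to 100148665 on the minus strand of the same chromosome. Krt7 (ENSMUSG00000023039) lies on chromosome 15 at 101411043 to 101430313, plus strand. Krt8 (ENSMUSG00000049382), at 101996698 to 102004482 on the minus strand, and Krt18 (ENSMUSG00000023043), at 102028180 to 102032027 on the plus strand, lie on the same chromosome and point away from each other. Epcam (ENSMUSG00000045394) is on chromosome 17 at 87635979 to 87651129, Spp1 (ENSMUSG00000029304) on chromosome 5 at 104435118 to 104441050 and Cdh1 (ENSMUSG00000000303) on chromosome 8 at 106603351 to 106670246, all 3 on the plus strand. Krt7 and Krt8 overlap the non-coding genes Gm671 and Gm36026 on the opposite strand, and Spp1 overlaps Gm42793 on its own strand. The strand setting of the counting is not given in the sources used here, so reads of such overlapping genes could not be separated, although Gm42793 itself had at most 0.158 CPM.

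Promoter sequences are shown for the keratin pair, whose levels moved together across libraries, and for Epcam, as a low gene that did not follow them once 1 library was left out. The stretches are taken from the 250 bases before a RefSeq start (GRCm38.p6) and are printed in the direction of the gene. They stop where an annotated exon of the gene begins. For Krt8 and Krt18 this leaves out the bases next to the RefSeq start. Their whole windows are chr15:102004343-102004592 and chr15:102027966-102028215. The Epcam window is printed whole. Capitals mark a GC box, GGGCGG on either strand.
Krt8, chr15:102004483-102004592, minus strand: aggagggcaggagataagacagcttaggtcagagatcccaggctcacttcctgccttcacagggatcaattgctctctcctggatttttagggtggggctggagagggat
Krt18, chr15:102027966-102028179, plus strand: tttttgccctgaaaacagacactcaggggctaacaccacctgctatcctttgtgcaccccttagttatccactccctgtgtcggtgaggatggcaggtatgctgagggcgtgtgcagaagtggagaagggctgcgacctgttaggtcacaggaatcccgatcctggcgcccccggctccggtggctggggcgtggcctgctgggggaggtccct
Epcam, chr17:87635729-87635978, plus strand: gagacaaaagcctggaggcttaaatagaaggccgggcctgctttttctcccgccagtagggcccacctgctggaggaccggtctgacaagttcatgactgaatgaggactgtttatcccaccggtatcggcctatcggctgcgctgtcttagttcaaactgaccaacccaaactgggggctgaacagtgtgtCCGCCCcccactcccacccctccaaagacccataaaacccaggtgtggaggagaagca
The RefSeq table held windows for 5 of the 8 genes. Both strands of the 250 bases before each start were searched for the core of the antioxidant response element (TGACNNNGC), the AP-1 site (TGANTCA), the GC box (GGGCGG) and the TATA box (TATAAA). Windows of Krt8 and Krt18 held 0 of the 4. Epcam held 1 GC box, from base −58 to −53 of the start, Krt7 held 4 GC boxes and Spp1 held 1 TATAAA at −211. Among all 32851 windows of this length, the same letters occurred in 10.2%, 6.75%, 32.7% and 12.4% respectively. A match of letters is a description of the window and shows no binding.

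Total counts per library ran from 12002317 to 99284626. Nfe2l2, the gene disrupted in the KO, ranged over 42.8 to 74.9 CPM (WT DMSO), 36.6 to 45.5 CPM (WT CDDO-Me), 19.9 to 51.7 CPM (KO untreated) and 15.7 to 21.0 CPM (KO CDDO-Me), and KO untreated 1 was inside the WT range. CPM here is the count scaled to the TMM library size. Nqo1, a target of NRF2, read 0.434 to 1.98 CPM in the 8 KO libraries and 3.21 to 45.9 CPM in the 8 WT libraries. WT DMSO 1 and 2 and KO untreated 1 and 2 held 0.673% to 0.967% of their counts in sense-intronic and unsettled (TEC) loci, against 0.186% to 0.407% in the other 12. Ribosomal RNA genes took 0.173% to 0.634% of the counts in 6 of the 8 WT libraries. The share was 0.00108% to 0.0368% in the other 10, which are the 8 KO libraries, WT DMSO 4 and WT CDDO-Me 1. The numbers that open the submitters' library descriptions split the same way, from 1 to 15 in the former and from 17 to 27 in the latter, and the labels do not say what these numbers mark. WT DMSO 4 was high in 7 of the 8 genes, and results of the 8 genes that rest on it are given with and without it. Hepatocyte genes were present throughout, with Alb (albumin) between 30429 and 85260 CPM. Of 30 further duct genes listed, 22 could be tested. Among them Cftr, a chloride channel, read 0 to 1.47 CPM and Sctr, the secretin receptor, read 0 to 0.356 CPM. Whole liver was sequenced, so fewer cells of a type and less RNA per cell cannot be told apart in any value here.

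Per length, the markers shared with hepatocytes were the abundant ones and the duct keratins the scarce ones. On the deposited FPKM scale, Krt8 averaged 117.6 over the 16 libraries (range 65.6 to 182.7) and Krt18 averaged 112.1 (66.1 to 170.5), and 344 and 366 genes of the table had a higher mean. Cdh1 followed at 17.8 FPKM (7.40 to 35.5) and Spp1 at 15.7 FPKM (4.80 to 32.9). Sox9 averaged 1.65 FPKM (0.583 to 5.46), below the median of 2.64 FPKM over tested genes. Epcam averaged 0.487 FPKM (0.259 to 2.06), Krt19 0.424 FPKM (0.135 to 1.18) and Krt7 0.0826 FPKM (0 to 0.181). Krt8 and Krt18 overlapped each other almost completely, as did Cdh1 and Spp1, and Epcam and Krt19. The lowest Krt18 value was above the highest Cdh1 value, whereas Spp1 and Sox9 met at their extremes and Krt19 and Krt7 overlapped. The length that the authors divided Krt7 by was 7056 bases, the longest of the 8, and it spans the exons of 5 annotated transcripts.

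**Figure D1:**
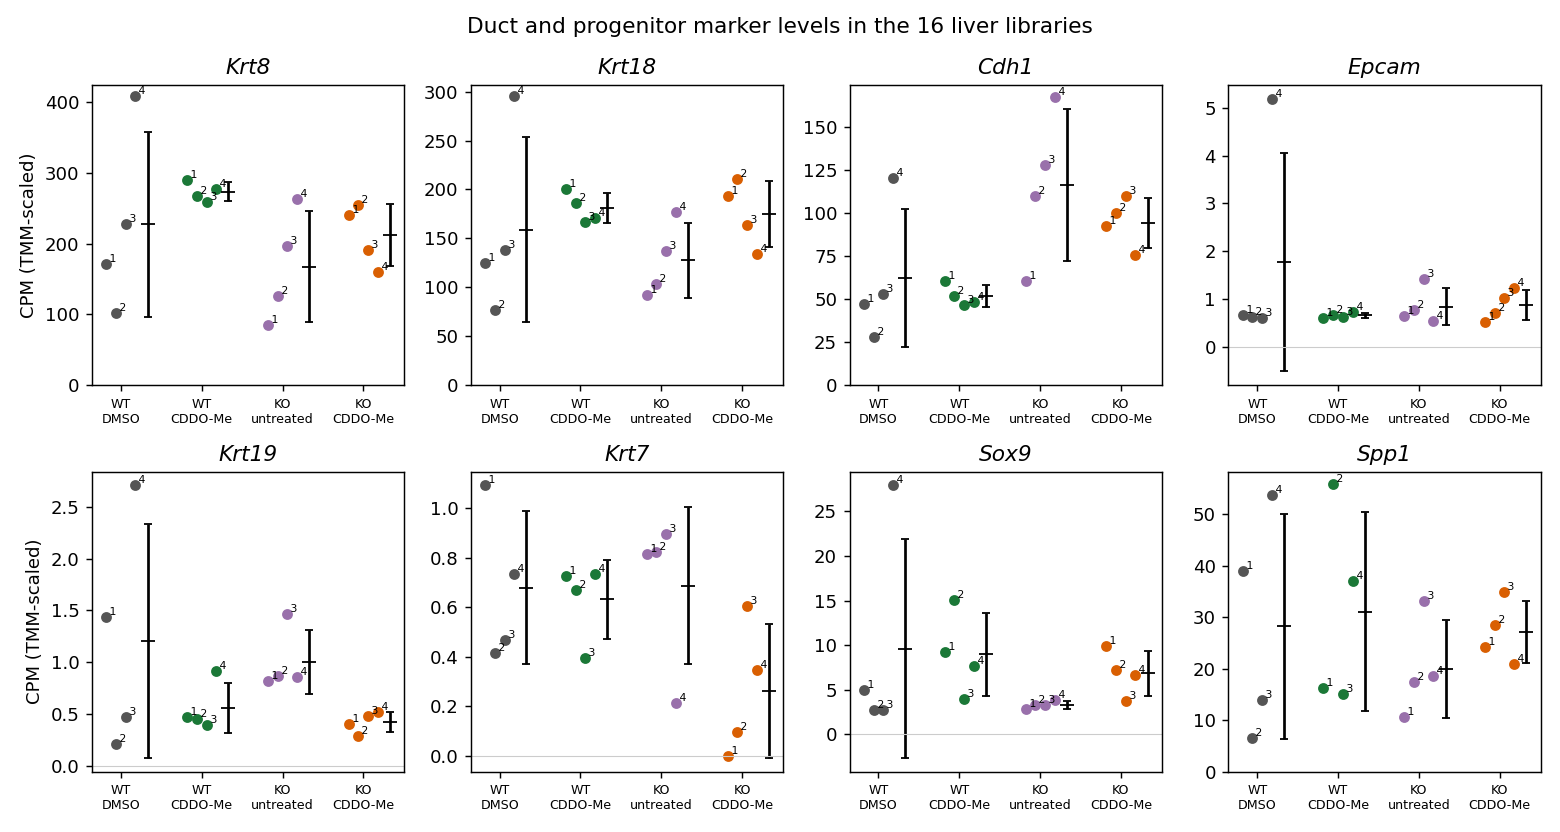
Level of each gene in CPM (linear axes, one panel per gene) in the 4 libraries of each group, numbered as in the text, with the group mean and SD as bars. WT DMSO 4 is the top point of the WT DMSO group in 7 of 8 panels, and Cdh1 is the gene whose KO CDDO-Me libraries all sit above the WT CDDO-Me libraries.

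With edgeR (quasi-likelihood, p-values adjusted by Benjamini-Hochberg over all tested genes), none of the 8 genes passed an adjusted p of 0.05 in any of the 5 comparisons. For WT CDDO-Me against WT DMSO, 0 of 8 were called, beside 0.728% of all genes, and 0 of 8 had groups that did not overlap, beside 7.2%, with 1 at an unadjusted p under 0.05. For KO CDDO-Me against KO untreated, 0 of 8 were called beside 0.13% of all genes, with 1 at an unadjusted p under 0.05. For KO untreated against WT DMSO, 0 of 8 were called beside 1.38%, and 0 of 8 had groups that did not overlap, beside 5.91%, with 2 at an unadjusted p under 0.05, and for KO CDDO-Me against WT CDDO-Me 0 of 8 beside 3.3%, with 1. For the interaction, which is the drug response of WT minus that of KO, 0 of 8 were called beside 0.13%, with 0 at an unadjusted p under 0.05. The unadjusted threshold was passed by 15.3%, 15.8%, 14.1%, 17.1% and 8.53% of all genes in these comparisons, in the same order. DESeq2 also called 0 of 8 in each, with 2, 2, 2, 1 and 0 genes at an unadjusted p under 0.05. The median log2 fold change of the 8 genes was −0.10 in WT with the drug and 0.20 in KO with the drug, where all genes had medians of −0.02 and −0.04. It was −0.38 for KO untreated against WT DMSO and −0.26 for KO CDDO-Me against WT CDDO-Me, where all genes had medians of 0.00 and −0.01. A missed threshold does not show that levels were equal, and the unadjusted 95% intervals given for each gene say how large a difference remained possible.

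**Figure D2:**
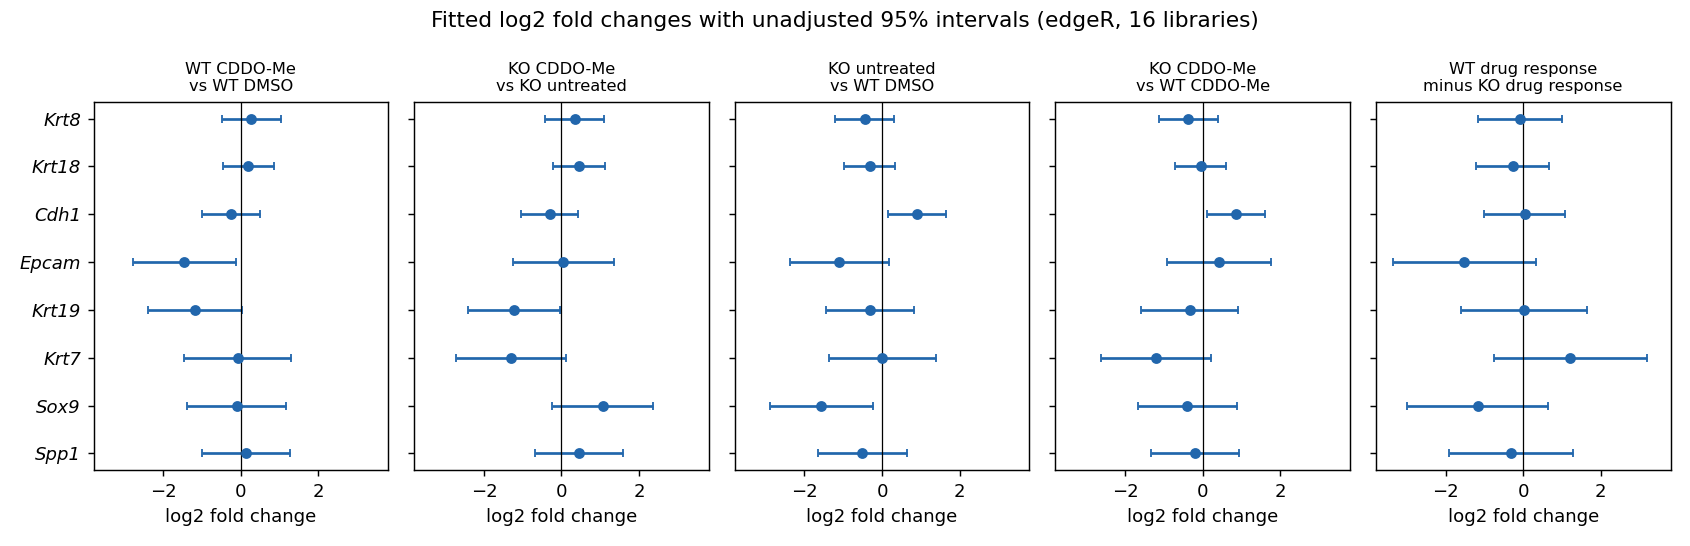
Fitted log2 fold change of each gene (points) with its unadjusted 95% interval (bars) in the 5 comparisons, from 1 edgeR fit of 16 libraries. Intervals of Krt18, Cdh1 and Krt8 are the narrower ones, those of Krt7, Epcam and Sox9 the wider, and Cdh1 lies to the right of 0 in both comparisons of KO with WT.

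Krt8, the type II keratin of every liver epithelial cell, was even in WT CDDO-Me and spread out in the control groups. It read 171.2, 102.5, 227.7 and 408.2 CPM in WT DMSO 1 to 4 and 290.5, 266.9, 258.7 and 277.3 CPM in WT CDDO-Me 1 to 4. The KO untreated libraries 1 to 4 read 84.3, 126.0, 196.2 and 262.6 CPM, and KO CDDO-Me 1 to 4 read 240.9, 254.7, 191.0 and 160.3 CPM. WT DMSO spanned 3.98-fold and WT CDDO-Me 1.12-fold, so the WT CDDO-Me libraries fell wholly inside the WT DMSO range. Every KO CDDO-Me library was below every WT CDDO-Me library, although the difference was small against the shared spread. That pair of groups had a log2 fold change of −0.37 ± 0.36 (SE, n = 4 in each group, edgeR adjusted p = 0.684), with an interval from −1.13 to 0.39. In WT the drug gave 0.27 ± 0.36 (interval −0.50 to 1.03, adjusted p = 0.715) and in KO 0.34 ± 0.36 (interval −0.42 to 1.10, adjusted p = 0.614).

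Krt18, the type I partner with which keratin 8 forms filaments, had the same order of libraries as Krt8 in 3 of the 4 groups, WT CDDO-Me being the exception. It read 124.6, 77.0, 138.4 and 295.3 CPM in WT DMSO 1 to 4, and 200.7, 186.0, 166.3 and 171.2 CPM in WT CDDO-Me 1 to 4. KO untreated 1 to 4 read 92.2, 103.6, 136.9 and 177.4 CPM, and KO CDDO-Me 1 to 4 read 192.8, 210.2, 163.4 and 133.8 CPM. The groups overlapped in each of the 4 comparisons. With the drug, its log2 fold change was 0.19 ± 0.31 in WT (interval −0.47 to 0.85, edgeR adjusted p = 0.772) and 0.46 ± 0.31 in KO (interval −0.21 to 1.12, adjusted p = 0.439). Between KO CDDO-Me and WT CDDO-Me it was −0.05 ± 0.31 (adjusted p = 0.966), with an interval from −0.71 to 0.61.

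The keratin pair tended to be lower where the share of intronic reads was higher. In the 4 libraries richest in such reads Krt8 read 84.3 to 171.2 CPM and Krt18 77.0 to 124.6 CPM, and in the other 12 they read 160.3 to 408.2 CPM and 133.8 to 295.3 CPM. Those 4 libraries are all controls, and without them the log2 fold change of Krt8 with the drug was −0.25 in WT and −0.10 in KO, and that of Krt18 was −0.29 in WT and 0.18 in KO. Each control group then had 2 libraries. The part of RNA quality in these values was not tested.

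Cdh1, the E-cadherin of epithelial junctions, had a higher mean in KO than in WT livers with and without the drug. It was called in neither comparison, and it was higher in the libraries with the lower share of ribosomal RNA. It read 47.2, 28.2, 52.7 and 120.5 CPM in WT DMSO 1 to 4, and 60.4, 109.9, 128.0 and 167.3 CPM in KO untreated 1 to 4. KO untreated against WT DMSO gave a log2 fold change of 0.90 ± 0.35 (SE, n = 4 in each group), a 1.87-fold difference with an interval from 0.16 to 1.65. It missed the threshold (edgeR unadjusted p = 0.0204, adjusted p = 0.235). The groups overlapped because WT DMSO 4 lay above 2 of the KO libraries. KO was higher in 4 of 4 matches of libraries with the same number, although the labels give these libraries different animals. With the replicate number as a block the difference on the log2 scale was 0.96 ± 0.34 (edgeR adjusted p = 0.176). Without WT DMSO 4 the log2 fold change was 1.45 and passed (edgeR adjusted p = 0.0202). Over all fits that left out 1 library it ran from 0.66, without WT DMSO 2, to 1.45. A limma test on log2(FPKM + 1) of all 16 libraries also called it (1.13, adjusted p = 0.0452).

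Under the drug, Cdh1 read 60.7, 51.9, 46.4 and 48.6 CPM in WT CDDO-Me 1 to 4, and 92.5, 99.993, 109.7 and 75.4 CPM in KO CDDO-Me 1 to 4. Every KO library was above every WT library. This gave a log2 fold change of 0.86 ± 0.35, a 1.82-fold difference with an interval from 0.12 to 1.61 (edgeR unadjusted p = 0.026, adjusted p = 0.213). In this comparison 2 of the 8 genes had groups that did not overlap, Cdh1 higher and Krt8 lower in KO, beside 19.1% of all genes, so such a pattern was common here. Leaving out any 1 library kept the Cdh1 value between 0.78 and 0.96. Without the 4 libraries rich in intronic reads it was 0.88 and passed (edgeR adjusted p = 0.0267). The comparison under the drug and the one without it share no library. With the drug, Cdh1 had log2 fold changes of −0.26 ± 0.35 in WT and −0.30 ± 0.35 in KO, neither called (edgeR adjusted p = 0.712 and 0.641), and the interaction was 0.04 ± 0.49.

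The split of the libraries by ribosomal RNA was also a split by Cdh1. It read 28.2 to 52.7 CPM in the 6 libraries with the higher share of ribosomal RNA and 60.4 to 167.3 CPM in the 10 with the lower share. The other 7 genes overlapped between these sets, and 0.302% of all tested genes did not. Within the lower set each WT group had 1 library. WT DMSO 4, at 120.5 CPM, was inside the range of KO untreated, and WT CDDO-Me 1, at 60.7 CPM, was below the 4 KO CDDO-Me libraries, so this direction was kept under the drug with 1 WT library and no test. With the set added to the model, an alternative chosen after the data were seen, the log2 fold change of Cdh1 was 0.33 ± 0.37 in KO untreated against WT DMSO (edgeR adjusted p = 0.774) and 0.13 ± 0.40 in KO CDDO-Me against WT CDDO-Me (adjusted p = 0.928). As no KO library was in the higher set, those values lean on WT DMSO 4 and WT CDDO-Me 1.

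Epcam, the adhesion molecule of duct and progenitor cells, was low in 15 libraries and higher in 1. WT DMSO 1 to 4 read 0.682, 0.624, 0.602 and 5.19 CPM, and WT CDDO-Me 1 to 4 read 0.619, 0.670, 0.632 and 0.734 CPM. KO untreated 1 to 4 read 0.660, 0.772, 1.42 and 0.554 CPM, and KO CDDO-Me 1 to 4 read 0.526, 0.718, 1.02 and 1.24 CPM. These values stand for 8 to 113 reads a library. Apart from WT DMSO 4, the libraries of the 4 groups lay between 0.526 and 1.42 CPM. The fitted log2 fold change with the drug in WT was −1.46 ± 0.63 (interval −2.79 to −0.14, edgeR unadjusted p = 0.0328, adjusted p = 0.292), and without WT DMSO 4 it was 0.05 (adjusted p = 0.942). For KO untreated against WT DMSO it was −1.10 ± 0.61 (adjusted p = 0.458), and 0.42 without that library. In KO the drug gave 0.05 ± 0.61, with an interval from −1.24 to 1.34.

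Krt19, the type I keratin of ducts, read 1.43, 0.208, 0.468 and 2.71 CPM in WT DMSO 1 to 4, and 0.467, 0.447, 0.395 and 0.918 CPM in WT CDDO-Me 1 to 4. It read 0.813, 0.869, 1.46 and 0.852 CPM in KO untreated 1 to 4, and 0.405, 0.287, 0.478 and 0.516 CPM in KO CDDO-Me 1 to 4. Every KO CDDO-Me library was below every KO untreated library. It was the 1 gene of the 8 whose groups did not overlap in that comparison, beside 10.5% of all genes. The log2 fold change was −1.22 ± 0.56 (interval −2.41 to −0.04, edgeR unadjusted p = 0.0442, adjusted p = 0.306), from group means of 0.999 ± 0.310 and 0.421 ± 0.101 CPM (SD, n = 4). Between 6 and 31 reads a library stand behind these means. In WT the drug gave −1.19 ± 0.57 (interval −2.40 to 0.02, adjusted p = 0.334), with overlapping groups, and −0.38 without WT DMSO 4. The interaction was 0.03 ± 0.77, with an interval from −1.59 to 1.66.

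Krt7, the type II keratin that pairs with keratin 19 in ducts, was the lowest of the 8. WT DMSO 1 to 4 read 1.09, 0.416, 0.468 and 0.735 CPM, WT CDDO-Me 1 to 4 read 0.724, 0.670, 0.395 and 0.734 CPM, and KO untreated 1 to 4 read 0.813, 0.820, 0.897 and 0.213 CPM. KO CDDO-Me 1 to 4 held 0, 2, 19 and 10 reads, or 0, 0.0957, 0.605 and 0.344 CPM. KO CDDO-Me 1 and 2 were the lowest of all 16 libraries, while KO CDDO-Me 3 lay inside the range of each other group. KO CDDO-Me 4 was below every WT library and inside the range of KO untreated, which reached down to 0.213 CPM in KO untreated 4. A count of 0 in KO CDDO-Me 1 allows up to 0.121 CPM. The log2 fold change with the drug in KO was −1.30 ± 0.66 (interval −2.71 to 0.11, edgeR adjusted p = 0.34), and between KO CDDO-Me and WT CDDO-Me it was −1.21 ± 0.67 (interval −2.63 to 0.21, adjusted p = 0.39). In WT the drug gave −0.09 ± 0.65, with an interval from −1.47 to 1.30. The interaction of 1.22 ± 0.93 was not called (adjusted p = 0.825). Differences inside these intervals remained possible.

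Sox9, the transcription factor of duct and progenitor cells, varied more between libraries than between groups. It read 4.91, 2.78, 2.74 and 27.9 CPM in WT DMSO 1 to 4, a 10.2-fold span. WT CDDO-Me 1 to 4 read 9.22, 15.0, 3.95 and 7.62 CPM. KO untreated 1 to 4 were even, at 2.79, 3.23, 3.26 and 3.84 CPM, and KO CDDO-Me 1 to 4 read 9.87, 7.18, 3.76 and 6.60 CPM. In KO, 3 of the 4 treated libraries were above all untreated ones, and the fourth was inside their range. The log2 fold change with the drug in KO was 1.06 ± 0.62 (interval −0.25 to 2.37, edgeR adjusted p = 0.379), a 2.08-fold difference of means that did not pass. In WT it was −0.11 ± 0.60 (interval −1.39 to 1.16, adjusted p = 0.934). Without WT DMSO 4 it turned to 1.37 in WT (adjusted p = 0.0931) and stayed uncalled. For KO untreated against WT DMSO it was −1.56 ± 0.62 (interval −2.88 to −0.24, unadjusted p = 0.0232, adjusted p = 0.253), and −0.08 without WT DMSO 4. With the ribosomal RNA set in the model, which leaves more weight on WT DMSO 4, it was −2.35 ± 0.56 and was called (edgeR adjusted p = 0.0269).

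Spp1, the secreted matrix protein osteopontin, had wide and overlapping groups throughout. WT DMSO 1 to 4 read 38.9, 6.59, 13.98 and 53.6 CPM, and WT CDDO-Me 1 to 4 read 16.3, 55.7, 15.0 and 37.0 CPM. KO untreated 1 to 4 read 10.7, 17.3, 33.1 and 18.7 CPM, and KO CDDO-Me 1 to 4 read 24.2, 28.5, 34.8 and 20.9 CPM. The means ± SD (n = 4 each) were 28.3 ± 21.8, 31.01 ± 19.3, 19.9 ± 9.44 and 27.1 ± 6.00 CPM, in the same order. With the drug, the log2 fold change was 0.12 ± 0.54 in WT (interval −1.01 to 1.26, edgeR adjusted p = 0.918) and 0.44 ± 0.54 in KO (interval −0.69 to 1.58, adjusted p = 0.657). KO untreated against WT DMSO gave −0.51 ± 0.54, and KO CDDO-Me against WT CDDO-Me −0.19 ± 0.54.

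WT DMSO 4 set much of the spread in the WT control. It also differed from the other 3 controls in its share of ribosomal RNA, 0.00595% against 0.173% to 0.634%, and in its description number, 25 against 1, 3 and 5. It was the highest WT DMSO library for 7 of the 8 genes, Krt7 being the exception, where 30.2% of all tested genes were highest in it. It was the highest of all 16 libraries for 5 genes, Sox9, Krt19, Epcam, Krt8 and Krt18, where 12.5% of all genes were. The duct list stood out less. Its 30 genes summed to 409.4 CPM in WT DMSO 4 and to 267.3 to 381.7 CPM in the other 3 controls, and 10 of 22 tested genes were highest there. The neutrophil and monocyte list summed to 47.0 CPM in WT DMSO 4 and to 5.15 to 9.76 CPM in the others, and 7 of its 7 tested genes were highest there. Lcn2, a secreted acute-phase protein also listed with progenitor genes, read 1309.6 CPM in WT DMSO 4, and 173.8, 86.2 and 29.8 CPM in WT DMSO 1 to 3. Apart from the model with a term for ribosomal RNA, the part of these other signals in the marker values was not tested. The drug comparison in WT and the comparison of KO untreated with WT DMSO share the WT DMSO libraries, so this library enters both. Leaving it out turned the direction of Sox9, Epcam and Cdh1 in WT CDDO-Me against WT DMSO, and of Krt19, Epcam and Krt18 in KO untreated against WT DMSO, where Spp1 and Krt8 came to 0.010 and 0.0026.

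**Figure D3:**
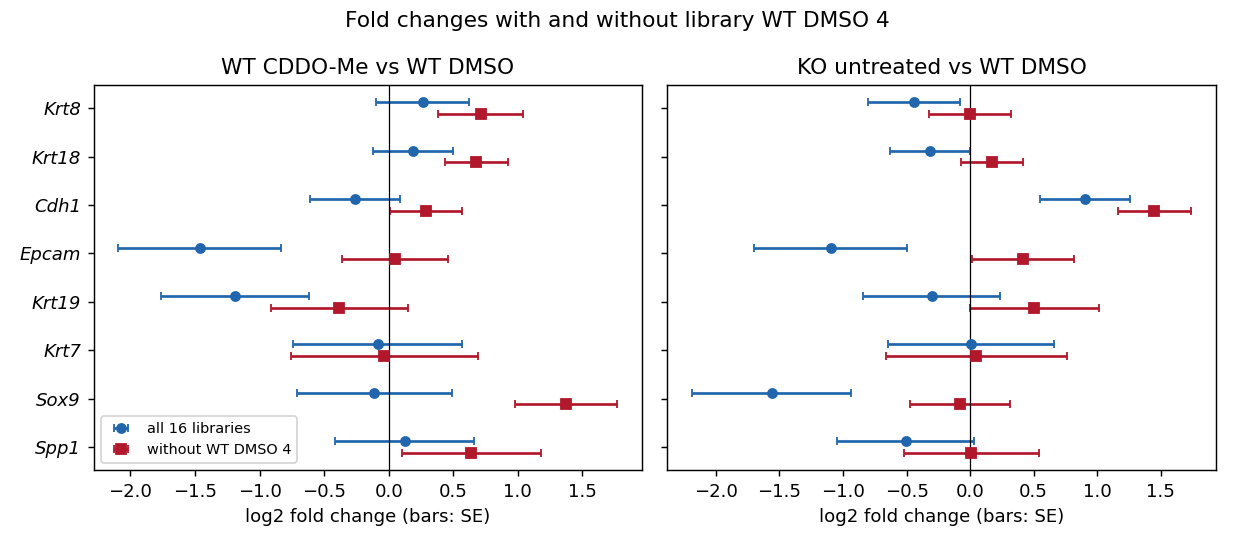
Log2 fold change (points) and its SE (bars) from the edgeR fit of all 16 libraries and from the fit without WT DMSO 4, in the 2 comparisons that use the WT DMSO group. Sox9 and Epcam shift furthest, Sox9 from −0.11 to 1.37 in WT CDDO-Me against WT DMSO, and Krt7 barely shifts.

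The Krt8 to Krt18 ratio on the FPKM scale separated the KO CDDO-Me libraries from all WT libraries. WT DMSO libraries had ratios of 1.03 to 1.28, WT CDDO-Me libraries 1.11 to 1.26 and KO untreated libraries 0.709 to 1.15. In KO CDDO-Me the ratio ran from 0.906 to 0.969, below every WT library. The means ± SD (n = 4 each) were 1.11 ± 0.111, 1.17 ± 0.0688, 0.978 ± 0.2004 and 0.936 ± 0.0259, in the same order. These ratios were picked out after the values were seen and are given without a test, and they do not show which of the 2 keratins differed. Where a ratio stands relative to 1 depends on the lengths used. With the union of annotated exons (1958 bases for Krt8 and 1437 for Krt18) in place of the authors' lengths (1805 and 1400), WT DMSO ratios ran from 0.977 to 1.21 and WT CDDO-Me ratios from 1.05 to 1.19. KO untreated ratios then ran from 0.670 to 1.09, and KO CDDO-Me ratios from 0.858 to 0.917, still below every WT library.

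**Figure D4:**
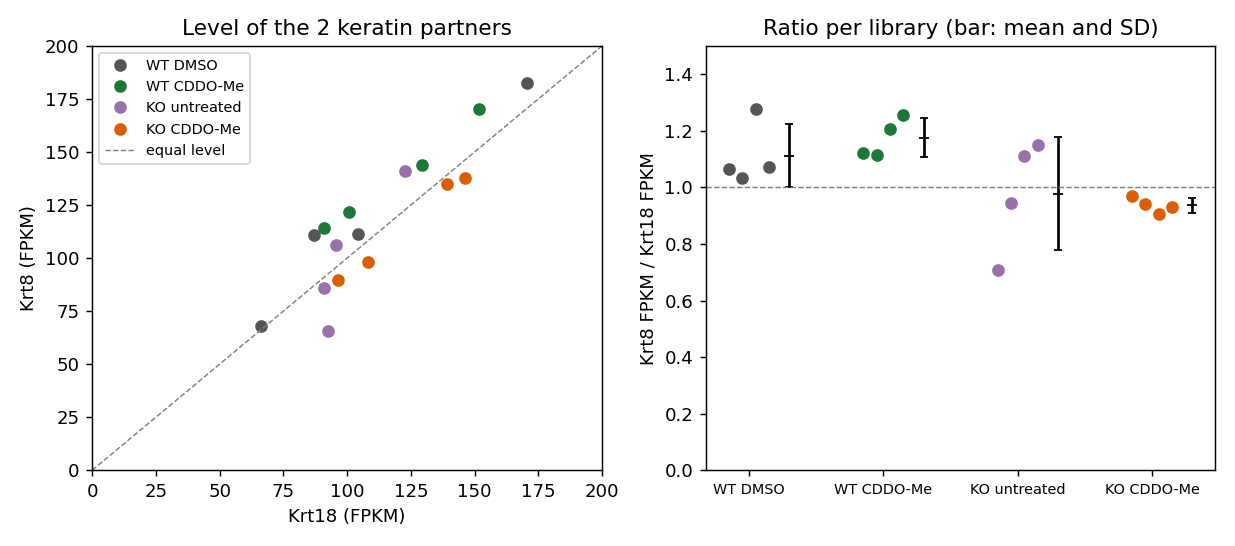
Left, Krt8 against Krt18 in FPKM in each of the 16 libraries, with a dashed line of equal FPKM by the authors' lengths; right, their ratio per library by group, with mean and SD as bars and an axis from 0. The 4 KO CDDO-Me libraries sit below 1, between 0.906 and 0.969, and the 8 WT libraries above it.

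Within groups, the keratin pair and Cdh1 moved together from library to library. Pearson's r between log2 CPM values, after each group's mean was taken out, was 0.957 for Krt8 and Krt18 over 16 libraries (Spearman's rho 0.962, permutation p = 1e-05 for each, the smallest that 100000 permutations can give, adjusted p = 9.33e-05 over 28 pairs). It was 0.940 without the 2 libraries farthest from the median of Krt8, 0.957 without WT DMSO 4 and 0.973 without the 4 libraries rich in intronic reads. Without WT DMSO 4 and WT CDDO-Me 1, where each group lies within 1 ribosomal RNA set, r was 0.961 for this pair, 0.920 for Cdh1 and Krt8 and 0.871 for Cdh1 and Krt18. For Cdh1 and Krt8 r was 0.941 (rho 0.782, permutation p = 1e-05 for r and 0.00069 for rho, adjusted p for r = 9.33e-05), and 0.882 without the 2 farthest libraries. For Cdh1 and Krt18 r was 0.938 (rho 0.838, permutation p = 1e-05 for r and 0.00012 for rho, adjusted p for r = 9.33e-05), and 0.833 without the 2 farthest libraries. For Krt19 and Spp1 r was 0.810 (rho 0.679, permutation p = 0.00019 and 0.00472, adjusted p for r = 0.00133), and 0.607 without the 2 farthest. The permutations swapped libraries freely across groups, although group spreads differed and removing the means ties the values within a group. The permutation p-values of all pairs may therefore be too small.

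The other relations depended largely on WT DMSO 4 and on WT DMSO 2. Of 28 pairs, 20 had an adjusted permutation p under 0.05 over 16 libraries, and 5 without WT DMSO 4. Those 5 were the 3 pairs among Krt8, Krt18 and Cdh1, Krt19 with Spp1 (r = 0.741) and Krt7 with Epcam (r = 0.742, 0.404 over all 16). Sox9 and Epcam, both progenitor markers, had r = 0.671 (rho 0.382, permutation p = 0.0145 and 0.144, adjusted p for r = 0.0254) over 16 libraries, 0.0599 without the 2 farthest and −0.22 without WT DMSO 4. Krt7 and Krt19, the keratins that pair in ducts, had r = 0.397 (rho 0.556, permutation p = 0.128 and 0.0279, adjusted p for r = 0.156), and 0.468 without the 2 farthest. Without WT DMSO 2, the lowest library of its group for Krt8, Krt18, Cdh1, Spp1, Krt19 and Krt7, 6 pairs passed. The share of pairs of other genes that pass the same test was not computed. Whether any of these markers, the keratin pair and Cdh1 included, moved together more than other genes do was therefore not tested.

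**Figure D5:**
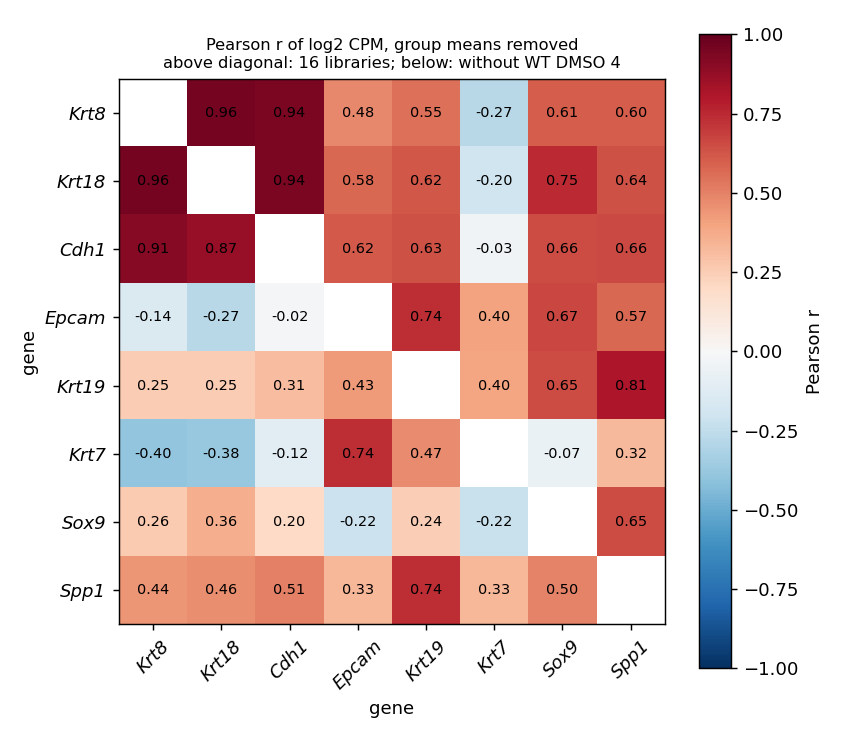
Pearson's r of log2 CPM between each pair of genes with group means removed, over 16 libraries above the diagonal and over 15 libraries without WT DMSO 4 below it, on a colour scale from −1 to 1. The block of Krt8, Krt18 and Cdh1 keeps r of 0.87 to 0.96 on both sides, while the cell of Sox9 and Epcam goes from 0.671 to −0.22 and that of Krt7 and Epcam from 0.404 to 0.742.

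The genes most like each member over the 16 libraries differed from member to member. They were ranked by Pearson's r of log2 CPM among 13624 genes with a mean of at least 1 CPM. Group means were kept here, unlike in the pair correlations above, so differences between groups enter r. Cdh1 and Krt8, for scale, had r = 0.295 with group means kept and 0.941 with them removed. For Cdh1 the closest genes were Cxadr (r = 0.975), another junction protein, Fam213a (0.929) and Plpp6 (0.905). Krt8 had Tmem176b (0.965), Tmem176a (0.958) and Nfe2l1 (0.941), and Krt18 had Myh9 (0.921), a non-muscle myosin, Larp1 (0.916) and G3bp1 (0.913). Sox9 was closest to Sh3pxd2b (0.907), Lcn2 (0.888) and Plaur (0.886), the urokinase receptor. Lcn2 and Sox9 shared their 2 highest libraries, WT DMSO 4 and WT CDDO-Me 2, where Lcn2 read 1309.6 and 1113.7 CPM. Epcam was closest to Slc6a8 (0.917), Ext1 (0.905) and Adm (0.904). Krt19 had Papln (0.790), AC151730.1 (0.785) and Svep1 (0.779), Krt7 had Adgrv1 (0.877), Acaa1b (0.823) and 4931406P16Rik (0.811), and Spp1 had Mbtps2 (0.808), Thsd4 (0.791) and Itgb8 (0.791), an integrin subunit. These are the highest of many values and are given as a description.

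Other genes of the ducts and of progenitor cells did not pass the test under the drug in either genotype. Of the duct list, 0 of 22 tested genes were called in WT CDDO-Me against WT DMSO (median log2 fold change −0.10) and 0 of 22 in KO CDDO-Me against KO untreated (median −0.17). In KO CDDO-Me against WT CDDO-Me, 1 of 22 was called lower, beside 3.3% of all genes called. That gene was Spint2, an inhibitor of epithelial serine proteases, at −0.95 ± 0.22 on the log2 scale (edgeR adjusted p = 0.026). Of 15 progenitor and fetal liver genes, 11 were tested and 0 were called in any comparison. All 11 had positive log2 fold changes in WT with the drug, with a median of 0.24, beside 48.4% of all genes. In that comparison 15 of 15 Kupffer cell and macrophage genes, 15 of 16 stellate cell genes and 15 of 16 endothelial genes were also positive. Of the duct list 10 of 22 were, and of the neutrophil and monocyte list 3 of 7. In KO, 4 of 11 progenitor and fetal liver genes were positive, with a median of −0.40, beside 45.5% of all genes. The summed level of the list in KO lay the other way, at 191.02 to 281.4 CPM untreated and 308.4 to 868.6 CPM with the drug. Most of that sum was Lcn2, at 49.5 to 93.3 CPM untreated and 139.5 to 691.96 CPM with the drug in KO. Afp (alpha-fetoprotein) stayed between 0.446 and 3.07 CPM in all 16 libraries.

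Among genes that work with the members, 4 were called in KO CDDO-Me against WT CDDO-Me, where 3.3% of all genes were, and 1 in KO untreated against WT DMSO, where 1.38% were. Of 24 tested Notch and YAP pathway genes, a set that acts upstream and downstream of Sox9 in ducts, 1 was called, Notch1, a receptor, lower in KO than in WT under the drug (−0.75 ± 0.18, edgeR adjusted p = 0.0323). Of 11 tested keratin partners and stress genes, 2 were called lower in that comparison, the desmosomal plaque protein Pkp2 (−0.54 ± 0.11, edgeR adjusted p = 0.0133) and the small heat shock protein Hspb1 (−1.27 ± 0.33, adjusted p = 0.0478). Krt5, a basal-cell keratin, had 0 reads in all 16 libraries. Of 21 tested junction and epithelial genes, 1 was called, the tight junction protein Cldn1, 2.55-fold higher in KO untreated than in WT DMSO (log2 fold change 1.35 ± 0.28, edgeR adjusted p = 0.0232). Of 12 tested receptors and matrix partners of osteopontin, 1 was called, the macrophage elastase Mmp12, lower in KO than in WT under the drug (−3.29 ± 0.74, edgeR adjusted p = 0.0213). Mmp12 was near the floor, at 0.0479 to 0.241 CPM in KO CDDO-Me, from 1 to 7 reads a library. In WT CDDO-Me it read 0.316 CPM, from 4 reads, to 3.13 CPM in WT CDDO-Me 2.

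Markers of other cell types were read beside these. The Kupffer cell and macrophage list, cells that can also make Spp1, summed to 314.9 to 338.0 CPM without the drug and 562.9 to 734.3 CPM with it in WT livers, and 5 of its 15 tested genes were called higher there, the 4 with the largest fold changes being Marco, Cd5l, Lgals3 and Adgre1. In KO it summed to 303.1 to 576.1 CPM untreated and 460.7 to 686.1 CPM with the drug, with 0 of 15 called. Adgre1 was called higher in KO untreated than in WT DMSO, Marco, Trem2 and Lgals3 were called lower in KO than in WT under the drug, and Marco was called for the interaction. Of the other cell lists, the neutrophil gene Mmp8 was called lower in KO untreated than in WT DMSO, at 0 to 0.0426 CPM against 0.0694 to 3.31 CPM. The highest of these values was that of WT DMSO 4, and the KO values were at the floor. A single read in KO untreated 4 gives 0.0426 CPM. The value of Mmp8 without WT DMSO 4 is not reported here. Under the drug, the endothelial gene Stab1 and the stellate cell gene Ecm1 were called lower in KO than in WT, and the B cell gene Ighm, the hepatocyte gene Ass1 and Cela1, from the pancreatic list, were called higher. Spp1 itself overlapped in both of these comparisons. Mesothelial genes, another source of keratins 8, 18 and 19, summed to 16.1 to 35.3 CPM over the 16 libraries, with Msln at or below 0.170 CPM. Gallbladder and gut epithelial genes summed to 29.1 to 85.7 CPM in the WT libraries and 44.1 to 385.6 CPM in the KO libraries, with 0 of 3 tested genes called in any comparison. The part of these other cells in the marker values was not tested.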

How the data were processed

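RNA-seq of 16 mouse livers (4 groups of 4 animals) was deposited as a table of whole-number read counts per gene and a table of FPKM, both made by the authors. The tables held 0 further columns. The submitters' processing notes name TopHat2 2.1.0, HTSeq 0.6.1p1, cutadapt 1.2.1, CASAVA 1.8.2 and DESeq2, with GRCm38.p5 as the build, and give no roles. The annotation release, strand setting and any filter is each not given in the sources used here. Each deposited FPKM equals its count over 1 length per gene and the library total, with a largest relative deviation of 8.71e-07.

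The test was edgeR 4.0.16 (quasi-likelihood, TMM, filterByExpr by group, minimum count 10) in R 4.3.3, 1 fit of 4 group means over 16 libraries with 12 residual degrees of freedom, two-sided, on the 16206 of 33730 genes that passed the filter. Calls were made at an adjusted p under 0.05 (Benjamini-Hochberg, over all genes tested). Standard errors and 95% intervals are on the log2 scale, and values given as mean ± SD are CPM or ratios. Differences are KO minus WT, or treated minus control. Intervals and the limit set by a count of 0 (3 reads) cover counting error only where they come from 1 library. Correlations used log2 CPM (prior count 2) with group means removed and 100000 permutations of the libraries. The fit and the correlations were tested on simulated data. Limma 3.58.1 on log2(FPKM + 1), DESeq2 1.42.0, RLE scaling, no low-count filter, and fits without single libraries or sets of libraries were alternatives. A term for the 2 sets of libraries with more or less than 0.1% of counts on ribosomal RNA genes was added after the data were seen. Printed values are from the fit without any such term or block unless one is named.

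Symbols and positions came from GENCODE M21 (33629 IDs matched), and promoters from RefSeq. The 8 genes and the gene lists were chosen with earlier results of these data known. All 8 genes are given in every comparison. From each list, called genes are named, at most 4 per list and comparison by size of the fold change, and the 3 genes most like each member are named by r. Of the listed symbols, 12 were not analysed here, and the level of 1 further listed gene is not reported here. No pair of libraries was a duplicate (lowest chi-square per degree of freedom 15.1).

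Groups share replicate numbers, while the labels give each library its own animal number. Deviations of same-numbered libraries correlated at 0.371 to 0.483 in KO untreated and WT DMSO, above 0.1 in all 4 pairs. The fit with the replicate number as a block therefore serves as the paired fit of this comparison. That reading comes from the data and not from the design. Numbers 1 and 2 of both groups are also the 4 libraries rich in intronic reads. The part of that share in these correlations was not tested, and differently numbered libraries were not compared. In the other comparisons not every pair of same-numbered libraries reached 0.1.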

Additional observations from a re-analysis of the deposited data

Results flagged for a closer look

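In 5 of 32 sets of 4 libraries (8 genes in 4 groups), 1 library stood far from the other 3 by Dixon's test at the 95% level, which chance alone gives in about 1 in 20 sets. Sox9, the duct transcription factor, read 27.9 CPM in WT DMSO 4, where the nearest library read 4.91 CPM. Epcam, the adhesion molecule of ducts, read 5.19 CPM in the same library, where the nearest read 0.682 CPM. Krt19 read 0.918 CPM in WT CDDO-Me 4 (nearest 0.467 CPM) and 1.46 CPM in KO untreated 3 (nearest 0.869 CPM), and Krt7 read 0.213 CPM in KO untreated 4 (nearest 0.813 CPM). The Krt19 and Krt7 values rest on few reads.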

How the results depend on the processing

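Each group had 4 libraries, and few reads stand behind Krt7, Krt19 and Epcam. The intervals of these genes were wide, so sizeable differences may have been missed. The part of read depth in that width was not tested. Calls changed for Cdh1 and Sox9. In KO untreated against WT DMSO, 1 of 8 genes (Cdh1) was called by limma on log2(FPKM + 1) and with WT CDDO-Me 1 and WT DMSO 4 left out, and 0 to 1 in fits that left out 1 library. With the ribosomal RNA set as a term, 1 of 8 (Sox9, −2.35, edgeR adjusted p = 0.0269) was called there, and 698 of all genes. In KO CDDO-Me against WT CDDO-Me, 1 (Cdh1) was called without the 4 libraries rich in intronic reads. In the other comparisons 0 were called under every alternative. With the replicate block, 0 of 8 were called in each comparison, and the genes called over the whole table numbered 226 in WT CDDO-Me against WT DMSO, 46 in KO CDDO-Me against KO untreated, 811 in KO CDDO-Me against WT CDDO-Me and 42 for the interaction. The causes of changed counts were not tested.

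Counts of all genes called depended on the method. In the order WT drug, KO drug, KO against WT without drug, KO against WT with drug and interaction, DESeq2 called 471, 298, 657, 1125 and 176, where edgeR called 118, 21, 223, 534 and 21. Without a low-count filter, 51 were called for the KO drug comparison and 38 for the interaction. Limma called 67 for the KO drug comparison, 959 for KO against WT with drug and 57 for the interaction. Without the 4 intron-rich libraries, the counts were 4 for the KO drug comparison, 86 and 1482 for KO against WT without and with drug, and 67 for the interaction, and without WT CDDO-Me 1 and WT DMSO 4 the KO drug count was 88. Leaving out 1 library gave 54 to 219, 4 to 133, 104 to 271, 265 to 820 and 18 to 48. Of 28 pairs of genes, 20 correlated at an adjusted p under 0.05, against 11 on log2(FPKM + 1), 7 with group means kept, 9 without the intron-rich libraries, 5 without WT CDDO-Me 1 and WT DMSO 4, and 5 to 21 without 1 library.

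Signs turned for uncalled values. Under RLE scaling Krt7 was −0.0032 in KO untreated against WT DMSO, and with the replicate block −0.019. The block also gave Sox9 0.25 in the WT drug comparison and Epcam −0.070 in the KO drug comparison. Limma gave Sox9 0.14 in the WT drug comparison, Epcam −0.044 in the KO drug comparison, Krt19 0.045 in KO untreated against WT DMSO, Spp1 0.10 and Krt18 0.061 in KO CDDO-Me against WT CDDO-Me, and Krt8 0.049 for the interaction. Without WT CDDO-Me 1 and WT DMSO 4, the WT drug comparison gave Sox9 1.36, Epcam 0.094 and Cdh1 0.20. The same fit gave Krt19 0.50, Epcam 0.41, Spp1 0.0092, Krt8 0.0017 and Krt18 0.17 in KO untreated against WT DMSO, and Krt18 0.0037 in KO CDDO-Me against WT CDDO-Me. With the ribosomal RNA set as a term, Sox9 was 0.62 in the WT drug comparison, Krt7 −0.15 in KO untreated against WT DMSO, Epcam −0.93 in KO CDDO-Me against WT CDDO-Me and Krt8 0.052 for the interaction. For the interaction the fit without WT CDDO-Me 1 and WT DMSO 4 gave Sox9 0.30, Epcam 0.039, Spp1 0.42, Krt8 0.34 and Krt18 0.17. Without the 4 intron-rich libraries, the WT drug comparison gave Krt7 0.043, Spp1 −0.18, Krt8 −0.25 and Krt18 −0.29, and the KO drug comparison gave Epcam −0.13 and Krt8 −0.096. That fit gave Krt7 −0.18 in KO untreated against WT DMSO, and Krt19 −0.23 and Cdh1 −0.15 for the interaction.

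Leaving out 1 library turned signs within these ranges. In the WT drug comparison they were −0.47 to 1.37 for Sox9, −0.25 to 0.22 for Krt7, −1.75 to 0.050 for Epcam, −0.32 to 0.64 for Spp1, −0.51 to 0.29 for Cdh1 and −0.044 to 0.68 for Krt18. In the KO drug comparison Epcam ran from −0.16 to 0.42. In KO untreated against WT DMSO they were −0.64 to 0.50 for Krt19, −0.16 to 0.32 for Krt7, −1.46 to 0.42 for Epcam, −0.87 to 0.010 for Spp1, −0.75 to 0.0026 for Krt8 and −0.55 to 0.17 for Krt18. In KO CDDO-Me against WT CDDO-Me they were −0.41 to 0.26 for Spp1 and −0.15 to 0.061 for Krt18. For the interaction they were −1.53 to 0.31 for Sox9, −0.31 to 0.84 for Krt19, −0.77 to 0.20 for Spp1, −0.21 to 0.59 for Cdh1, −0.38 to 0.37 for Krt8 and −0.50 to 0.22 for Krt18.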

Other observations

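Tff3, a trefoil peptide of mucus-secreting epithelium that belongs to the gallbladder and gut list, was chosen here after its values were seen. Its range was 1.74 to 11.8 CPM (WT DMSO), 5.43 to 49.9 CPM (WT CDDO-Me), 15.8 to 254.3 CPM (KO untreated) and 12.8 to 369.3 CPM (KO CDDO-Me). It was called in no comparison, and its edgeR adjusted p was 0.105 for KO untreated against WT DMSO. Pkhd1, the fibrocystin gene of duct cilia, also picked after its values were seen, read 24.5 to 61.3 CPM without and 14.5 to 25.5 CPM with the drug in WT, and 27.2 to 70.2 CPM without and 20.3 to 29.8 CPM with it in KO. Its log2 fold change with the drug was −0.82 ± 0.32 in WT and −0.89 ± 0.32 in KO (edgeR adjusted p = 0.251 and 0.241). The control and treated groups of Pkhd1 overlapped in both genotypes.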
